A study of Homo sapiens with 2 samples.

Results

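The interleukin-1 family and its receptors were examined in U87 cells, an established human glioblastoma line, by RNA sequencing of a culture kept for 72 h in the curcumin analog CCA-1.1 and of a culture kept in its solvent, DMSO. The members were fixed by name: the agonist cytokines IL1A, IL1B, IL18 and IL33, the receptor antagonist IL1RN, and the receptor chains IL1R1, IL1RAP and IL1RL1, which are 8 of the 41578 genes in the table. Both cultures were wild-type cells of the same line, the dose of CCA-1.1 in the sequenced culture is not given in the sources used here, and there was 1 library per condition. No difference therefore has a replicate check, no test of the treatment was possible and no p-value is given. Values are TPM, a relative transcript abundance that divides reads by transcript length and by the library total, so levels of different genes can be compared with each other but the read depth is unknown.

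IL-1 alpha and IL-1 beta bind the receptor IL1R1, which then recruits the accessory chain IL1RAP and signals through MYD88 and IRAK kinases to NF-kB and MAP kinases. The antagonist encoded by IL1RN occupies IL1R1 without recruiting the accessory chain. IL1RL1, also called ST2, is the receptor of IL-33 and uses the same accessory chain, while IL-18 has a receptor of its own. IL-1 beta and IL-18 are made as precursors that caspase-1 cleaves in inflammasomes, whereas the IL-1 alpha precursor is already active. In glioblastoma, IL-1 is known as an inducer of inflammatory and chemotactic cytokines in the tumour cells themselves.

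IL1B was the member with the largest difference between the libraries. IL1B had 74.59 TPM under DMSO and 44.18 TPM under CCA-1.1, which is 1.69-fold lower or -0.74 as a difference of log2(TPM + 1). IL1A, its neighbour on the chromosome, was at 51.43 TPM under DMSO and 46.03 TPM under CCA-1.1, a difference of -0.16. The receptor IL1R1 was also lower, at 24.63 TPM under DMSO and 18.74 TPM under CCA-1.1, a difference of -0.38. In bulk RNA, fewer cells that express a gene and less RNA per cell cannot be told apart. The other 5 members were each below 10 TPM in both libraries.

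**Figure D1:**
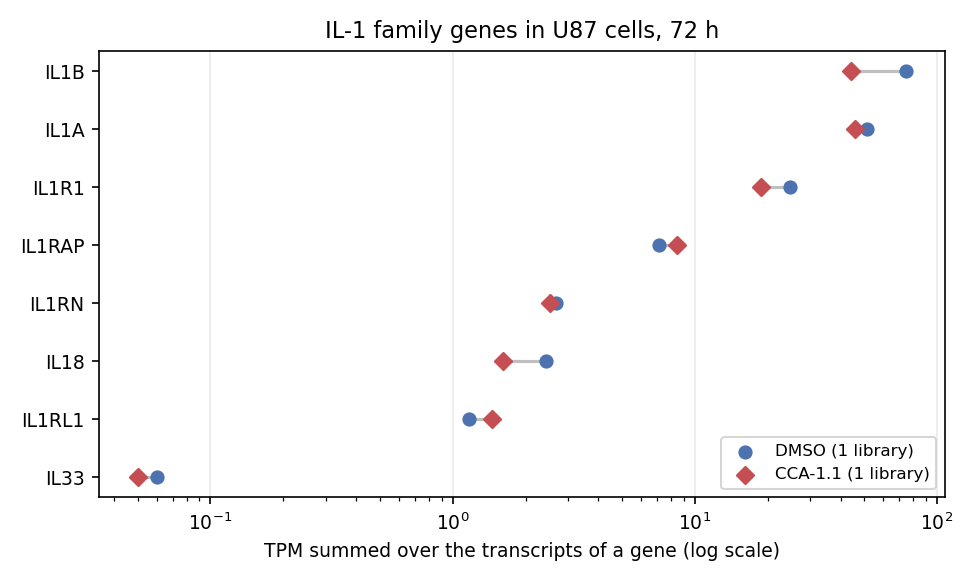
TPM of the 8 members summed over their transcripts (horizontal axis, log scale), with circles for the DMSO library and diamonds for the CCA-1.1 library. IL1B shows the widest gap in TPM, from 74.59 to 44.18, and IL33 lies below 0.1 TPM in both libraries.

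None of the 8 members differed by more than 2-fold, that is above 1 or below -1 on the log2(TPM + 1) scale. Of the 15482 genes averaging at least 1 TPM over both libraries, 1.89% were above 1 and 1.67% were below -1. This minimum was met by 7 of the members, all except IL33. Their median difference was -0.16, against 0.029 over all genes with that mean, and 5 of the 7 were lower in the CCA-1.1 library, as were 43.8% of all genes with that mean. Because low genes scatter more than abundant ones, each member was also placed among genes of a similar level. Between 30 and 100 TPM, the 5th and 95th percentiles of 3144 genes were -0.30 and 0.28. IL1B lay below this range, with 20 of the 3144 genes (0.636%) lower than it, and IL1A lay within it, with 16.1% of genes lower. Between 10 and 30 TPM the 5th percentile of 3887 genes was -0.318, and IL1R1 lay below it with 3.40% of genes lower. This placement depends on predicted transcripts: with them left out, IL1R1 differed by -0.310, just above that percentile, which was not recomputed. IL1RAP, IL1RN, IL1RL1 and IL18 each lay between the 5th and 95th percentiles of their own level. These percentiles describe the scatter across genes in these 2 libraries and do not replace replicates.

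**Figure D2:**
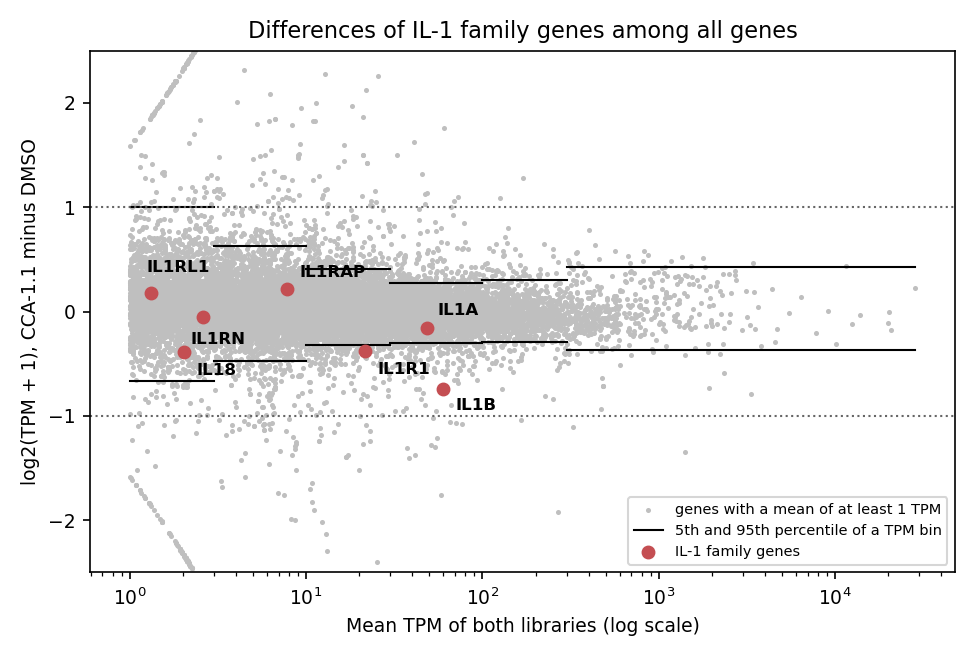
Difference of log2(TPM + 1), CCA-1.1 minus DMSO, against the mean TPM of both libraries (log scale) for genes averaging at least 1 TPM, with the 7 members above that mean in red. Black lines mark the 5th and 95th percentiles of each TPM bin and dotted lines mark 2-fold. IL1B (-0.74) and IL1R1 (-0.38) lie below the lower lines, and 128 genes beyond 2.5 in either direction are not drawn.

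Among the ligands, IL1A and IL1B lie next to each other on chromosome 2 of GRCh38.p14, IL1A (Entrez 3552) at chr2:112773925-112784493 and IL1B (Entrez 3553) at chr2:112829751-112836779, with 45257 bases between them. Both are on the minus strand. The table lists 2 transcripts of each. The IL1B transcript NM_000576.3 held the whole IL1B value in both libraries, and the predicted transcript XM_047444175.1 was listed at 0 in both. In IL1A, NM_000575.5 was at 50.91 TPM under DMSO and 45.43 TPM under CCA-1.1, and NM_001371554.1 was at 0.52 TPM and 0.60 TPM. Almost all of the difference in either gene therefore belongs to 1 curated transcript, with few other transcripts to which reads could be assigned.

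IL1B was the higher of the pair under DMSO and the lower of the pair under CCA-1.1. The ratio of IL1B to IL1A was 1.45 under DMSO and 0.960 under CCA-1.1. A ratio of genes within 1 library does not depend on how the library was scaled. Together the 2 cytokines were at 126.0 TPM under DMSO and 90.21 TPM under CCA-1.1, and they made up 76.8% and 73.3% of the TPM of all 8 members.

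The 250 bases before the outermost annotated start of IL1B and of IL1A are shown 5′ to 3′ on the strand of the gene. They come from the RefSeq promoter table of GRCh38.p14, and any relation of these bases to the expression differences was not tested. The IL1B window is chr2:112836780-112837029 and the IL1A window is chr2:112784494-112784743, both minus strand. Capitals mark matches to 4 motifs searched on both strands, in which N is any base. These were TGANTCA for AP-1, TTGCNNAA for a C/EBP-type motif, TATAAA for a TATA box and, for a kappaB-type motif, GGG followed after any 3 bases by TTCC.
IL1B: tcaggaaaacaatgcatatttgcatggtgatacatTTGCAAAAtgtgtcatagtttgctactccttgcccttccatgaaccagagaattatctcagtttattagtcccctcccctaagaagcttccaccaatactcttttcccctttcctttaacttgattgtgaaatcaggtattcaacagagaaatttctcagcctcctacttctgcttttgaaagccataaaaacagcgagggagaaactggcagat
IL1A: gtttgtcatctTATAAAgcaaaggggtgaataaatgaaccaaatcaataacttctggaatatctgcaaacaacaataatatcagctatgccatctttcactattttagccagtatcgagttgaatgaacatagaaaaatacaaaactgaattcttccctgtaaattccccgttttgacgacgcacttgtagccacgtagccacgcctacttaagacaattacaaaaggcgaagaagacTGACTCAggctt

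The IL1B window held 1 match, TTGCAAAA of the C/EBP-type motif, from -215 to -208 relative to the annotated start. The IL1A window held TGACTCA of the AP-1 motif from -12 to -6 and TATAAA from -239 to -234. Of all 35116 windows of this length in the table, 6.57% held the AP-1 motif, 5.67% the kappaB-type motif, 9.05% the C/EBP-type motif and 10.7% TATAAA. The table held 15 windows for 7 of the 8 members, and IL18 had no entry. The AP-1 motif occurred in 4 of these windows, in IL1A, IL1RN and IL1RL1, and the 2 IL1A windows overlap and share a match. The IL1A window not shown, before an inner annotated start, also held TGAGTCA from -55 to -49 relative to that start. TATAAA also occurred in 4 of the 15 windows, in IL1A, IL1RN, IL1R1 and IL1RL1. The kappaB-type motif occurred in 1 window, of IL1RN, and the C/EBP-type motif in 1, of IL1B. These matches describe letters in short windows and are not binding sites.

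IL18 (Entrez 3606, chromosome 11 from 112143260 to 112164094) was at 2.43 TPM under DMSO and 1.62 TPM under CCA-1.1. With 1 TPM added, the difference of -0.39 is close to that of IL1R1 in size. Without the added 1 TPM, the log2 ratio was -0.58 for IL18 and -0.39 for IL1R1. Of 3158 genes between 1 and 3 TPM, 9.31% had a lower difference than IL18. Its transcript NM_001562.4 was at 2.21 TPM and 1.62 TPM, and NM_001386420.1 was at 0.22 TPM under DMSO and listed at 0 under CCA-1.1. IL33 (Entrez 90865, chromosome 9 from 6215149 to 6257983), a nuclear alarmin of barrier and stromal cells, was far below the other members. It was at 0.06 TPM under DMSO from NM_001314047.2 and at 0.05 TPM under CCA-1.1 from a different transcript, NM_001199641.2, and the other 13 of its 15 transcripts were listed at 0 in both libraries. Of the 4 agonist cytokines, IL1A and IL1B were thus the abundant ones in both libraries.

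The antagonist IL1RN (Entrez 3557, chr2:113099360-113134014) was at 2.66 TPM under DMSO and 2.53 TPM under CCA-1.1, a difference of -0.05. The agonists IL1A and IL1B together exceeded it 47.4-fold under DMSO and 35.7-fold under CCA-1.1. The transcript NM_000577.5, which encodes an intracellular form of the antagonist, was at 1.66 TPM under DMSO and 2.25 TPM under CCA-1.1. NM_173842.3, which encodes the secreted form, was at 0.41 TPM under DMSO and listed at 0 under CCA-1.1. The share of NM_000577.5 in the gene was 62.4% under DMSO and 88.9% under CCA-1.1. Of the 10 IL1RN transcripts, 5 were above 0 in the DMSO library alone, 1 in the CCA-1.1 library alone and 1 in both, and each of the 6 found in a single library was below 0.5 TPM. With curated transcripts alone, without the predicted ones, the gene difference was 0.04, so its sign depends on which transcripts are summed.

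The signalling receptor IL1R1 (Entrez 3554, chr2:102070390-102179874) had the most transcripts, 23, of which 13 were above 0 in at least 1 library. NM_001320980.2 was the highest in both, at 12.87 TPM under DMSO and 8.40 TPM under CCA-1.1. Its difference of -4.47 TPM made up most of the gene difference of -5.89 TPM. The share of NM_001320980.2 in the gene was 52.3% under DMSO and 44.8% under CCA-1.1. NM_001320985.1 went the other way, with 3.31 TPM under DMSO and 3.97 TPM under CCA-1.1. NM_001320978.2 was at 2.42 TPM and 2.02 TPM, and NM_001320983.1 was at 2.06 TPM and 1.69 TPM. NM_001320986.2 was at 0.70 TPM and 1.05 TPM.

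The predicted IL1R1 transcript XM_011511115.3 was at 1.62 TPM under DMSO and 0.26 TPM under CCA-1.1, a difference of -1.06. It was the 1 transcript past 2-fold among the 79 of all members, and none was higher by that much. These counts depend on the pseudocount: with 0.1 TPM in place of 1 TPM, 12 were lower and 5 higher by 2-fold, and with 0.01 TPM 15 and 6. With a minimum mean of 1 TPM, 0 were lower. Among all 177816 transcripts, 1.17% were above 1 and 1.07% were below -1. The predicted IL1R1 transcript XM_047444180.1 was listed at 0 under DMSO and reached 0.60 TPM under CCA-1.1. NM_000877.4 was listed at 0 in both. Reads shared by several transcripts are divided among them by estimation, so the sum over IL1R1 is less dependent on that division than any single transcript. With predicted transcripts left out, IL1R1 differed by -0.31.

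The accessory chain IL1RAP (Entrez 3556, chromosome 3 from 190514085 to 190659750) was at 7.12 TPM under DMSO and 8.42 TPM under CCA-1.1, a difference of 0.21 and opposite in sign to IL1R1. At its level, 25.9% of 3737 genes were higher. The ratio of IL1R1 to IL1RAP was 3.46 under DMSO and 2.23 under CCA-1.1. NM_001167929.2 and NM_001167930.2 were the main transcripts, at 2.85 TPM and 2.70 TPM under DMSO and at 3.78 TPM and 2.77 TPM under CCA-1.1. NM_134470.4, which encodes a soluble form of the accessory chain, was at 0.05 TPM and 0.09 TPM. Whether other IL1RAP transcripts, including the main ones, also encode soluble forms was not examined, so no soluble share of the gene is given.

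IL1RL1 (Entrez 9173, chr2:102311563-102352356) was at 1.17 TPM under DMSO and 1.46 TPM under CCA-1.1, a difference of 0.18. In both libraries the larger part came from NM_003856.4, which encodes the soluble form of ST2 that binds IL-33 without signalling. It was at 1.17 TPM under DMSO, the whole of the gene, and at 1.07 TPM under CCA-1.1, where its share was 73.3%. NM_016232.5, which encodes the membrane receptor, was listed at 0 under DMSO and reached 0.26 TPM under CCA-1.1. The ligand IL33 was below 0.1 TPM and the transcript of the membrane form of its receptor was below 1 TPM in both libraries.

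The ligand and receptor genes form clusters on chromosome 2. From IL1A to IL1RN there were 9 protein-coding genes within 360 kb, and from IL1R2 to IL18RAP there were 6 within 461 kb. The differences did not run in 1 direction along the ligand cluster, from IL1B at -0.74 to IL36B at 0.46. IL36B, an IL-36 agonist, was the highest gene of the cluster, at 118.98 TPM under DMSO and 163.79 TPM under CCA-1.1. In the receptor cluster, IL1R1 was the highest gene, and the decoy receptor IL1R2, which binds IL-1 without signalling, was at 4.71 TPM under DMSO and 5.18 TPM under CCA-1.1. The ratio of IL1R1 to IL1R2 was 5.23 under DMSO and 3.62 under CCA-1.1. IL1R1-AS1, a long non-coding RNA whose span overlaps IL1R1, was listed at 0 in both libraries.

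Genes around the receptor were read from lists written with earlier results of these data known, so their counts are descriptions. Of the 14 other ligands, receptors and decoys of the family, 6 had a mean of at least 1 TPM, none passed 2-fold, and the median difference was 0.12. IL18R1, the IL-18 binding chain, had the lowest difference of these, -0.19 (1.27 TPM under DMSO, 0.99 TPM under CCA-1.1). Of the 17 genes of cytokine processing and release, 14 reached that mean and none passed 2-fold, with a median of 0.045. CASP1, which cleaves the IL-1 beta and IL-18 precursors, was at 33.41 TPM and 34.23 TPM, while PYCARD, the inflammasome adaptor, was listed at 0 in both libraries; these 2 genes were chosen after their values were seen. CAPN2, a calpain and the most abundant of the list, was at 591.2 TPM and 614.7 TPM. The differences ran from -0.42 for CARD16, a regulator of caspase-1, to 0.48 for NLRP1, an inflammasome sensor. CARD16 shares close sequence with CASP1, and reads of the pair may have been divided between them.

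Of the 22 signalling genes below the receptor, 21 had a mean of at least 1 TPM and none passed 2-fold. Their differences had a median of 0.034 and ran from -0.10 for IRAK1, which had the highest mean of both libraries, at 187.2 TPM under DMSO and 175.0 TPM under CCA-1.1, to 0.48 for PELI1, a ubiquitin ligase of the IRAK complex, at 3.03 TPM and 4.62 TPM.

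The list of IL-1 responsive genes held more differences. Of its 30 genes, 23 had a mean of at least 1 TPM, 20 of these were lower under CCA-1.1 (against 43.8% of all genes), and 7 of them by more than 2-fold (30.4%, against 1.67% of all genes), with none higher by 2-fold. The median difference was -0.39. CXCL8, PTGS2, SAA1 and MMP3 were already known to be lower when the list was written, so this count is not independent evidence of its direction. CSF3, which encodes the granulocyte growth factor G-CSF, had the lowest difference, -1.92, at 427.0 TPM under DMSO and 111.9 TPM under CCA-1.1. IL6 was at 11.11 TPM and 4.92 TPM, a difference of -1.03, and the neutrophil chemokine CXCL8 was at 73.15 TPM and 29.61 TPM, a difference of -1.28. PTGS2, the inducible prostaglandin synthase, was at 32.69 TPM and 13.30 TPM, a difference of -1.24. The matrix protease MMP3 was at 223.5 TPM and 108.1 TPM, a difference of -1.04. The remaining 2 were acute phase genes, SAA1 at 443.2 TPM and 205.5 TPM and SAA2 at 103.8 TPM and 48.71 TPM. SAA1 and SAA2 are near-identical copies, so the division of reads between them is uncertain.

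IL1B thus differed less than these 7 genes and more than IL1A. The highest difference in the list was 0.35 for BIRC3, an inhibitor of apoptosis, at 9.64 TPM and 12.55 TPM. IER3, which had the highest mean of both libraries, was at 1895 TPM and 1965 TPM. SOD2, the mitochondrial superoxide dismutase, was above it under DMSO alone, at 2158 TPM and 1652 TPM, a difference of -0.39. Many genes of the list also respond to other stimuli of NF-kB, and which stimulus acted in these cultures was not tested.

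The cells were compared with the markers of their label and of cells that commonly make IL-1. VIM (3217 TPM under DMSO, 3106 TPM under CCA-1.1) and CD44 (607.4 TPM and 472.6 TPM) were abundant, and the progenitor markers NES (7.53 TPM and 7.62 TPM), OLIG2 (5.64 TPM and 7.03 TPM) and SOX2 (1.87 TPM and 1.45 TPM) were detected at lower levels. Of the astrocyte markers, ALDH1L1 was at 3.42 TPM and 6.05 TPM, GFAP was at 0.41 TPM and 0.57 TPM, and S100B was listed at 0 in both. ALDH1L1 had the highest difference of these 8 markers, 0.67. Of 10 myeloid markers, AIF1, TYROBP and C1QA were listed at 0 in both libraries and PTPRC, the marker of all leukocytes, was at 0.09 TPM and 0.07 TPM. LYZ and ITGAM were below 1 TPM in both. CD163 was at 2.11 TPM and 3.61 TPM, CD14 at 1.82 TPM and 1.54 TPM, and CSF1R at 1.23 TPM and 1.62 TPM. CD68, a lysosomal protein that other cells also express, held most of the myeloid sum of 500.3 TPM under DMSO and 404.9 TPM under CCA-1.1, and CD163 had the highest difference, 0.57. The 5 endothelial markers summed to 4.74 TPM and 3.93 TPM. Of the lymphoid markers, CD2 was at 12.67 TPM and 12.96 TPM, and CD3E was listed at 0 in both libraries.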

How the data were processed

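RNA of 1 DMSO and 1 CCA-1.1 culture of U87 cells was sequenced. The authors checked reads with FastQC 0.11.9 and MultiQC 1.1 and quantified transcripts by pseudo-alignment with Kallisto against GRCh38.p14, as the submitters' processing notes and the study's methods name them. Bias correction and library strand are not given in the sources used here. The deposited values are TPM rounded to 2 decimals, 1 column per library. TPM keeps no read depth, so no interval and no limit for a 0 is given. A difference of 1 on the log2 scale was used as the threshold. The authors' own differential expression test, which also used a p-value, was not rerun, since the values are not counts.

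Transcripts were matched to gene symbols with a RefSeq table of GRCh38.p14 (169960 of 177816, including 169405 by versioned identifier, and all 79 of the members), and TPM was summed per gene. The 7856 without a symbol held 0.952% of the DMSO and 0.978% of the CCA-1.1 total. Differences are log2(TPM + 1), CCA-1.1 minus DMSO, which understates changes of low genes. Genes averaging at least 1 TPM formed the background. All members and their transcripts of at least 1 TPM were to be named. From each list, genes past 2-fold, the gene with the highest mean TPM and the extremes were named; other genes and lower transcripts were chosen after their values were seen. The members and lists were chosen with earlier results of these data known. The calculation was tested on simulated data. Alternatives were other pseudocounts, minimum means, scaling, curated transcripts and versioned identifiers. Calculations used Python 3.11.15 with numpy 2.4.6 and pandas 2.3.3, and matplotlib 3.10.9 for figures.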

Additional observations from a re-analysis of the deposited data

How the results depend on the processing

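With 1 library per condition nothing could be left out, and no paired analysis was possible because each condition has a single library. The read depth is unknown. None of the 8 members passed 2-fold under pseudocounts of 0.1 or 0.01 TPM, median-ratio scaling (factor 1.01), curated transcripts, versioned identifiers or a minimum mean of 1 TPM, where IL33 gives no value. The difference of IL1B ran from -0.76 to -0.74 over these settings, that of IL1A from -0.16 to -0.16 and that of IL1R1 from -0.39 to -0.31. IL1RN changed sign, from -0.07 to 0.04, the latter with curated transcripts. The difference of IL1RAP ran from 0.16 to 0.24 and that of IL1RL1 from 0.18 to 0.32. That of IL18 ran from -0.58 to -0.39 and that of IL33 from -0.22 to -0.01. The largest values in size of IL18, IL1RL1 and IL33 came with a pseudocount of 0.01 TPM. The 7 IL-1 responsive genes lower by 2-fold were counted as 7 under every setting run, and the other lists had none past 2-fold in any setting run.

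Single transcripts depended on the pseudocount. With 0.1 TPM, 5 member transcripts were higher and 12 lower by 2-fold, with 0.01 TPM 6 and 15, and with a minimum mean of 1 TPM 0 were lower, since XM_011511115.3 of IL1R1 has a mean under it. Among all genes, 451 were higher with a pseudocount of 0.01 TPM in place of 293, and with a minimum mean of 10 TPM 44 were higher and 43 lower, since fewer genes were counted.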

Other observations

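IL36B, which was not among the members, had more TPM than IL1A or IL1B in both libraries. Its 3 transcripts in the table were each higher in the CCA-1.1 library. NM_173178.3 was at 91.68 TPM under DMSO and 129.95 TPM under CCA-1.1, NM_014438.5 was at 8.24 TPM and 13.78 TPM, and XM_011510962.1 was at 19.06 TPM and 20.06 TPM. At the level of IL36B, 1.65% of 1091 genes between 100 and 300 TPM had a higher difference. Its receptor chain IL1RL2 was at 0.08 TPM and 0.03 TPM, and the antagonist IL36RN was at 8.01 TPM and 8.61 TPM.

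IL18BP, the secreted inhibitor of IL-18, was at 9.07 TPM under DMSO and 10.45 TPM under CCA-1.1. Its ratio to IL18 was 3.73 under DMSO and 6.45 under CCA-1.1. IL18RAP, the signalling chain of the IL-18 receptor, was listed at 0 under DMSO and reached 0.03 TPM under CCA-1.1.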
